A study of Mus musculus with 4 samples.

Results

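Nr2f1, Nr2f2, Prss23 and Ptn, 4 genes used as marks of venous identity in the coronary endothelium, were followed through single-cell RNA sequencing of the mouse heart, out of 27998 genes in the count matrices. The genes were chosen by name rather than by a threshold, with earlier results of these data known. All 4 gave unique molecular identifiers (UMIs, 1 per captured transcript) in every library. Each was read in endocardial, coronary, artery and non-endothelial cells. A cell was non-endothelial if it had no UMI of Pecam1, Cdh5 or Egfl7. Of the others, it was put in the artery class with at least 3 UMIs of Cxcl12, Glul, Alpl and Nebl, in the endocardial class if Npr3 and Tmem108 together exceeded Fabp4, Cldn5 and Aplnr, and in the coronary class if the latter 3 genes summed to 2 or more and exceeded the endocardial pair. The 21920 cells examined came from 4 stages, and the genes were described across them, not the cells across genes.

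The cells were CD31+/CD45- cells sorted from hearts of C57Bl6J mice, that is, cells carrying an endothelial surface protein and lacking a leukocyte one. Hearts were taken at embryonic day 12 (E12, 37 embryos pooled), embryonic day 15 (E15, 48 pooled), postnatal day 2 (P2, 21 pups pooled) and 8 weeks of age (Adult, 6 animals pooled). All animals were untreated and of 1 strain, and each stage was 1 droplet library, so a stage has no replicate and no difference below has a test across animals. Stage also goes with depth and with cell preparation, and these cannot be told apart from age.

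Nr2f2 encodes COUP-TFII, an orphan nuclear receptor that binds DNA and represses Notch signalling in venous endothelium, so that loss of it lets arterial genes appear in veins. The same protein works with Prox1 in lymphatic endothelium and is present in atrial and mesenchymal cells, so it is not specific to veins. Nr2f1 encodes its close relative COUP-TFI. Prss23 encodes a secreted serine protease, and Ptn encodes pleiotrophin, a heparin-binding growth factor that is bound by the receptor Ptprz1 and the syndecan Sdc3 and has Mdk as its nearest relative.

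Nr2f1 lies on chromosome 13 (GRCm38, 78188973 to 78199757, minus strand, 3 exons). Nr2f2 (7, 70351944 to 70366735, 3 exons), Prss23 (7, 89507783 to 89527187, 2 exons) and Ptn (6, 36714929 to 36810220, 4 exons) are also on the minus strand, and all 4 are protein coding. Nr2f1 and Nr2f2 are the only pair among them with a close copy, which matters for counting, because a read from a stretch they share cannot be assigned. Their transcripts shared 10 runs of 50 bases, all inside the stretch of 59 bases printed here because it is the whole of that overlap, and it lies in 1 coding exon of each gene (chr13:78198284-78198342 for Nr2f1 and chr7:70360052-70360110 for Nr2f2).
Nr2f1 and Nr2f2, shared coding stretch: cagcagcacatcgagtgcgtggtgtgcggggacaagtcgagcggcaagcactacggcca
The stretch is 1733 bases from the 3′ end of the Nr2f1 transcript and 3680 bases from that of Nr2f2. The last 500 bases, where a 3′ tag library takes its reads, shared no such run (0 of the 1593 of Nr2f1), and none was shared with Nr2f6, the third mouse COUP-TF gene. Antisense genes overlap Nr2f1 (A830082K12Rik, 80, 67, 165 and 22 UMIs from E12 to Adult) and Prss23 (Prss23os, 6, 2, 3 and 2 UMIs). B130024G19Rik, on the opposite strand, overlaps Nr2f2 and the window printed next, and was not among the genes analysed here.

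The 250 bases before the RefSeq start of Nr2f2 (chr7:70366747-70366996, minus strand, GRCm38) are shown because Nr2f2 is the member by which cells are divided below. Capitals mark the CCAAT box, searched as CCAAT or ATTGG on either strand.
Nr2f2 upstream window: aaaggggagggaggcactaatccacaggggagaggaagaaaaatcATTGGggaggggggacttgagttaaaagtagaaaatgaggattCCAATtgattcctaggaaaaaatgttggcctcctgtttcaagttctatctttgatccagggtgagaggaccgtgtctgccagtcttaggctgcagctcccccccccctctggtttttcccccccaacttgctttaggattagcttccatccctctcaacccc
The window held 2 CCAAT matches, a motif found in 33.8% of 32851 mouse windows of this length. It held no match to the nuclear receptor hexamer AGGTCA or its reverse TGACCT (14.0% of windows) and none to the RBPJ core TGGGAA or its reverse TTCCCA (21.6% of windows). The window before Prss23 held none of the 3 motifs, and a match or its lack says only which letters are in the window.

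From E12 to Adult the libraries held 5732, 6062, 5884 and 4242 cells, and their median depths were 1241, 1013, 4531.5 and 1510 UMIs per cell. The E12 matrix listed all 737280 barcodes, and those with at least 452 UMIs were taken as cells. Any 2 libraries shared 25 to 60 cell barcodes, 0.589 to 1.02% of the smaller one. No doublet caller was run. E12 barcodes with under 100 UMIs, which hold free RNA, carried 108 Nr2f2, 17.9 Nr2f1, 27.5 Prss23 and 564 Ptn UMIs per 1000000 UMIs (CPM). The part of free RNA in the levels of E12 cells was not tested. The classes were uneven in content. At E12, 94.7% of the 75 cells passing the artery rule had 2 or more UMIs of mesenchymal, mural, epicardial, cardiomyocyte or immune markers, against 7.55% of the 106 coronary cells, and the arterial connexin Gja5 stood at 6.27 CPM in them and 21.5 CPM in coronary cells. At P2 the artery class (711 cells) had 123 CPM of Gja5 against 10.5 CPM in the coronary class (3906 cells). In the adult 1848 cells, 43.6% of the library, passed the artery rule, with 64.9 CPM of Gja5 against 28.2 CPM in the 2139 coronary cells, so this class was broad. Below, the E12 and E15 artery classes (75 and 28 cells) are called cells passing the artery rule.

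Nr2f2 was lower in artery cells than in coronary cells at P2 and in the adult, and higher in endocardial cells than in coronary cells from E15 on. In coronary cells its level was 177 CPM at E12 (127 to 240, the exact 95% Poisson interval, which covers counting error only here and throughout), 83.2 CPM at E15 (69.1 to 99.3), 82.2 CPM at P2 (78.2 to 86.3) and 41.7 CPM in the adult (35.1 to 49.3). In artery cells it was 37.3 CPM at P2 (31.5 to 43.8) and 18.4 CPM in the adult (14.3 to 23.3), and cells passing the artery rule had 56.4 CPM at E12 and 83.5 CPM at E15, the latter from 4 UMIs. The coronary and artery intervals were apart at P2 and in the adult, overlapped at E15 and were apart at E12. The artery level was 0.454 of the coronary one at P2 (0.381 to 0.537, the exact conditional interval of the ratio) and 0.442 in the adult (0.326 to 0.594). At E12 it was 0.320 (0.137 to 0.668), but among cells with fewer than 2 UMIs of other cell types' markers it was 2.12, and only 3 Nr2f2 UMIs of artery-rule cells then remained, so no order is read at E12.

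Endocardial cells, which line the chambers, held Nr2f2 at 155 CPM at E12 (136 to 176), 183 CPM at E15 (165 to 204), 158 CPM at P2 (148 to 170) and 199 CPM in the adult (142 to 271). Thus the endocardial level stayed within a narrow band while the coronary level was lower at E15 and P2 than at E12, and lower again in the adult. The E12 coronary interval overlapped that of free RNA (108 CPM, 85.9 to 135). At E12, 37 red blood cells had 14.8 Nr2f2 CPM from 1 UMI, and 20 immune cells had 0. The part of free RNA in the coronary difference from E12 was not tested. The endocardial level was 0.879 of the coronary one at E12 (0.630 to 1.26), 2.2 times it at E15 (1.79 to 2.73), 1.93 times at P2 (1.77 to 2.10) and 4.77 times in the adult (3.27 to 6.83). Between stages, coronary Nr2f2 at E15 was 0.471 of that at E12 (0.328 to 0.688), at P2 it was 0.988 of that at E15 (0.821 to 1.20), and in the adult it was 0.508 of that at P2 (0.424 to 0.604). Endocardial Nr2f2 in the adult was 1.26 times that at P2, with an interval of 0.891 to 1.73 that spans no change.

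The share of cells with a Nr2f2 UMI followed depth as well as level. It was 46.9% of endocardial cells at P2 but 8.59% when every cell was thinned to 500 UMIs, against 7.07% at E12, 10.1% at E15 and 17.8% in the adult at the same depth. For coronary cells the thinned shares were 8.49%, 4.94%, 3.99% and 1.40%, and for artery cells 1.55% at P2 and 1.08% in the adult. Of 37 red blood cells at E12, which should lack the gene, 1 had a Nr2f2 UMI before thinning (2.70%, median 1851 UMIs) and none did after it (0 of 37, which allows up to 9.49% by the exact binomial interval). The thinned share was thus lower in the adult than at E12 in coronary cells and not in endocardial cells.

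**Figure D1:**
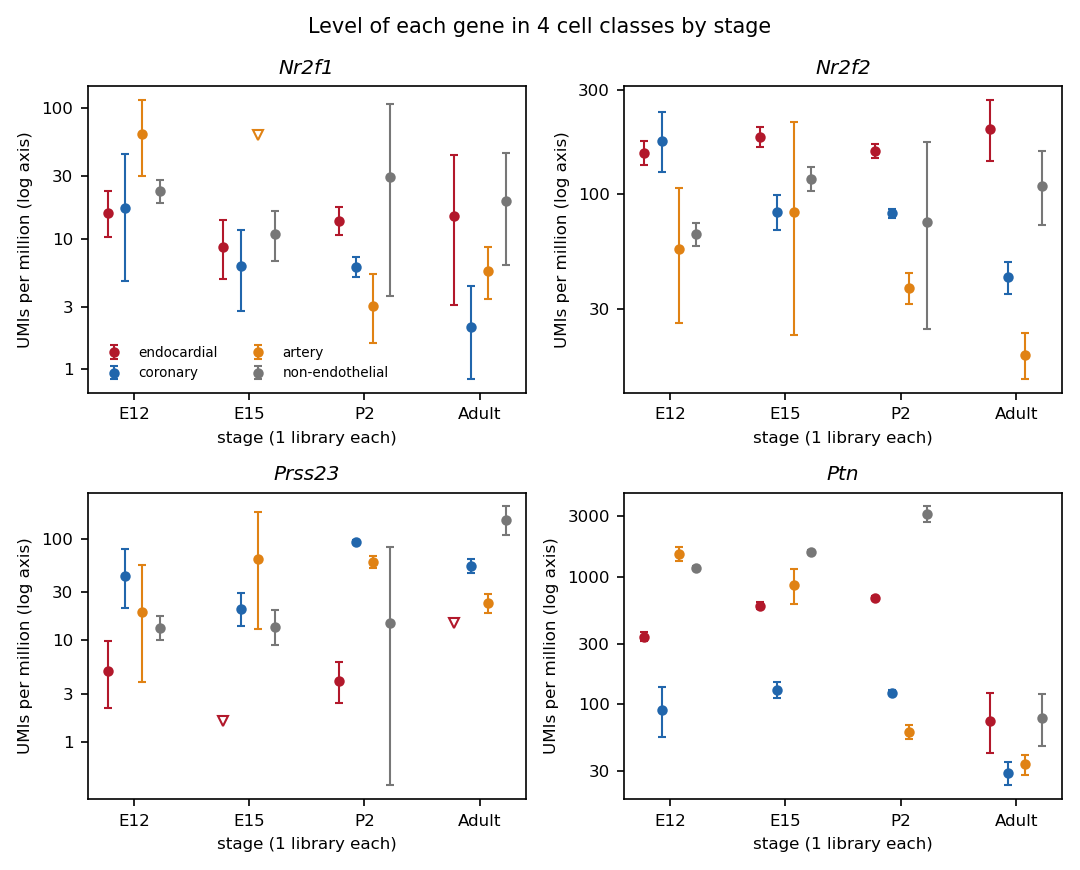
Level of each gene in CPM (log axis) at 4 stages, 1 library each, in endocardial, coronary, artery and non-endothelial cells. Points are levels over all cells of a class, bars are exact 95% Poisson intervals, and open triangles mark the limit that 3 UMIs give where none was seen. Coronary Nr2f2 went from 177 CPM at E12 to 41.7 CPM in the adult while endocardial Nr2f2 stayed between 155 and 199 CPM. Free RNA at E12 held 108 Nr2f2 CPM.

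Within the endothelium at P2, cells with at least 2 UMIs of the angiogenic capillary genes Kcne3 and Apln had 48.0 Nr2f2 CPM (494 cells), and cells with at least 3 UMIs of the mature capillary genes Timp4, Car4 and Cd300lg had 51.7 CPM (1772 cells). Lymphatic cells, with at least 2 UMIs of Prox1, Mmrn1, Reln and Ccl21a, had 178 CPM (279 cells, 159 to 199). Cells with at least 3 UMIs of the large artery genes Fbln5, Gkn3 and Eln had 133 CPM at P2 (125 to 141, 1421 cells), above the coronary level where the artery class was below it, and 35.2 CPM in the adult (23.8 to 50.3, 331 cells). These groups were drawn from all endothelial cells, endocardial ones included. The large artery group had 495 Ptn CPM at P2, where the artery class had 61.1 and endocardial cells 679. The part of endocardial cells in its Nr2f2 level was not tested. In the adult the mature capillary cells had 21.0 CPM (1659 cells, 16.4 to 26.5) and the 22 lymphatic cells had 159 CPM (76.1 to 292). Nr2f2 was therefore low in capillary cells and higher in lymphatic cells at both stages, by intervals that do not overlap.

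Nr2f2 UMIs were also seen in cells without a UMI of the 3 endothelial genes. These non-endothelial cells had 65.9 CPM at E12 (58.3 to 74.2), 118 CPM at E15 (104 to 134), 74.7 CPM at P2 (24.2 to 174, 13 cells) and 109 CPM in the adult (72.4 to 157). In the embryo most of these UMIs were in cells that had no set of another cell type's markers either, 189 of 273 at E12 (105 CPM in 1516 cells) and 187 of 242 at E15 (174 CPM in 1194 cells). Of the class, 596 cells at E12 and 545 at E15 met the endocardial condition, and mesenchymal cells had 31.0 and 48.5 CPM, so most of the embryonic Nr2f2 of this class was not in cells shown to be outside the endothelium. In the adult these UMIs were mostly in 26 cells with pericyte and smooth muscle markers (Rgs5, Kcnj8, Pdgfrb, Acta2, Tagln, Myh11), which held 25 of the 28 Nr2f2 UMIs at 435 CPM (281 to 641). The 35 adult mesenchymal cells had 25.4 CPM from 3 UMIs, and none was seen in 6 immune cells. Of the class, 101 of the 133 adult cells and 11 of the 13 at P2 met the coronary condition. The part of such cells in these levels was not tested.

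Nr2f1, the relative of Nr2f2, was thinly sampled. At P2 its order over endocardial, coronary and artery cells was that of Nr2f2. In the adult the artery class departed from this order, on few UMIs. Endocardial cells had 15.8 CPM at E12 (10.2 to 23.3), 8.56 CPM at E15 (4.89 to 13.9), 13.7 CPM at P2 (10.7 to 17.4) and 14.9 CPM in the adult from 3 UMIs. Coronary cells had 17.2 CPM from 4 UMIs, 6.14 CPM from 9, 6.10 CPM from 121 (5.06 to 7.28) and 2.10 CPM from 7, in the same order. At P2, the deepest library, the endocardial level was 2.25 times the coronary one (1.65 to 3.05). In artery cells Nr2f1 gave 3.04 CPM at P2 and 5.61 CPM in the adult. The ratio of artery to coronary cells was therefore below 1 at P2 (0.499, 0.251 to 0.904) and above 1 in the adult (2.67, 1.09 to 7.43), where Nr2f2 was lower in artery cells at both. The adult ratio rests on 21 and 7 UMIs. Among adult cells with fewer than 2 UMIs of other cell types' markers, artery cells had 3.71 CPM (1.92 to 6.48). Coronary cells then had 2.07 CPM (0.758 to 4.50), an interval that overlaps. Cells passing the artery rule had 62.7 CPM at E12 from 10 UMIs, none of which was left among cells with fewer than 2 UMIs of other cell types' markers, and none was seen in the 28 such cells at E15, which allows up to 62.6 CPM.

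Prss23 was high in lymphatic cells at every stage, and in the adult also in mural cells. Lymphatic cells had 272 CPM at E12 (149 to 457, 26 cells), 324 CPM at E15 (217 to 465, 62 cells), 969 CPM at P2 (923 to 1016, 279 cells) and 317 CPM in the adult (194 to 490, 22 cells). These cells were spread through the coronary and artery classes by the class rules, so they entered the Prss23 levels of those classes. Coronary cells had 43.1, 20.5, 93.6 and 54.0 CPM from E12 to the adult, and lymphatic cells, 231 of the 3906 at P2, held 40.0%, 73.3%, 86.1% and 10.0% of those UMIs. Without lymphatic cells, an alternative chosen after seeing the data, coronary cells had 28.8 CPM (10.6 to 62.7), 5.64 CPM (2.43 to 11.1), 14.0 CPM (12.3 to 15.8) and 49.2 CPM (41.9 to 57.4).

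The exclusion turned directions in coronary and artery cells. It also took non-endothelial over coronary Prss23 at P2 from 0.160 to 1.07, with 1 non-endothelial UMI. With all cells, coronary Prss23 in the adult was 0.577 of that at P2 (0.492 to 0.673), and without lymphatic cells it was 3.51 times it. At P2 the artery level was 58.8 CPM (0.628 of the coronary one, 0.546 to 0.721) with all cells and 37.0 CPM, 2.64 times the coronary one, without lymphatic cells. In the adult, where few lymphatic cells were captured, artery cells had 23.2 CPM and 0.430 of the coronary level (0.329 to 0.559) with all cells. Prss23 was thus higher in artery than in coronary cells at P2 and lower in the adult once lymphatic cells were left out.

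Endocardial cells had little Prss23, with 5.05 CPM at E12 (2.18 to 9.95) and 3.98 CPM at P2 (2.43 to 6.14). No UMI was seen in 1564 endocardial cells at E15, which allows up to 1.60 CPM, or in 73 in the adult, which allows up to 14.9 CPM. At P2 the endocardial level was 0.0425 of the coronary one, or 0.277 without lymphatic cells. Adult non-endothelial cells had 152 CPM (108 to 207), with 417 CPM in the 26 mural cells (267 to 621) and 76.1 CPM in the 35 mesenchymal ones (34.8 to 144). Cells with mural markers were thus high in both Prss23 and Nr2f2 in the adult, where 101 of the 133 cells of the class met the coronary condition.

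**Figure D2:**
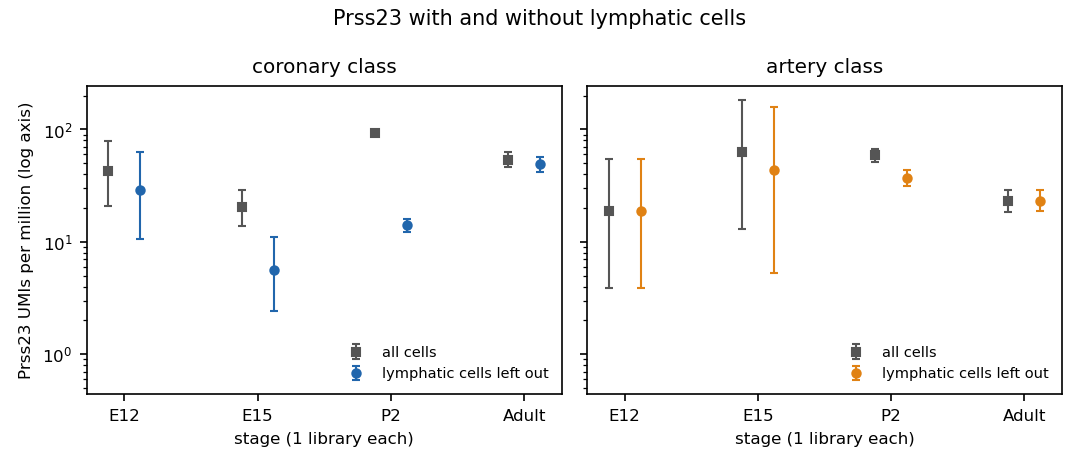
Prss23 level in CPM (log axis) in coronary cells (left) and artery cells (right) at 4 stages, with all cells (squares) and with lymphatic cells left out (circles); bars are exact 95% Poisson intervals. At P2 the coronary level went from 93.6 to 14.0 CPM when lymphatic cells were left out, and in the adult from 54.0 to 49.2 CPM.

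At E15 and P2, Ptn was higher in mesenchymal cells than in endocardial and coronary cells, and higher in endocardial than in coronary cells. At E12 the endocardial level was also above the coronary one, by intervals that do not overlap. Both lay below the 564 CPM of free RNA, whose part in them was not tested. Non-endothelial cells with mesenchymal markers (Col1a1, Col1a2, Col3a1, Pdgfra, Dcn) had 1626 CPM at E12, 3045 at E15, 4671 at P2 (5 cells) and 152 in the adult (90.2 to 240). Endocardial cells had 340 CPM at E12 (312 to 370), 594 CPM at E15 (559 to 630), 679 CPM at P2 (657 to 703) and 74.7 CPM in the adult (41.8 to 123). Coronary cells had 90.5 CPM (56.0 to 138), 130 CPM (112 to 150), 124 CPM (119 to 129) and 28.8 CPM (23.3 to 35.2). The endocardial level was 3.75 times the coronary one at E12, 4.56 times at E15, 5.49 times at P2 (5.21 to 5.79) and 2.59 times in the adult (1.40 to 4.49). The adult value rested on 15 UMIs in 4 cells, 12 of them in 1 cell, and among adult cells within the study's upper limits on UMIs, genes and mitochondrial share it was 0.484 of the coronary one.

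Ptn was lower in the adult than at P2 in each of the 4 classes, though not in the lymphatic and valve groups given at the end. The adult level was 0.110 of the P2 level in endocardial cells (0.0614 to 0.181), 0.233 in coronary cells (0.188 to 0.286) and 0.555 in artery cells (0.444 to 0.691). The adult artery value of 33.9 CPM came to 96 of 127 UMIs from 1 cell, and was 2.47 CPM among artery cells with fewer than 2 UMIs of other cell types' markers. Cells passing the artery rule had 1512 CPM at E12 and 856 CPM at E15, where non-endothelial cells had 1180 and 1561 CPM, and mesenchymal markers summed to 2490 CPM in them at E12 and 4383 CPM at E15. Ptn UMIs were also in 4 of the 37 red blood cells at E12 (10.8%). At E15 none of the 41 Ptn UMIs remained without the cells that carried such markers. At P2 artery cells had 61.1 CPM, 0.494 of the coronary level (0.431 to 0.564), and in the adult 1.18 times it (0.896 to 1.55).

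Read together, the 4 genes did not share 1 pattern over classes. A gene was counted as differing between 2 classes at a fold of 1.5 or more with at least 20 UMIs over both, a description with no test, and a class with no UMI was set to 3. At E12 Ptn was higher and Nr2f2 lower in artery-rule than in coronary cells among 2 genes with enough UMIs (20.8% and 22.6% of all genes were), and at E15 Prss23 and Ptn of 3 were higher (24.3%). Nr2f2 at E12 is counted here, though no order is read for it above. The E15 Prss23 count rests on 3 artery-rule UMIs (a ratio of 3.06, 0.598 to 9.84). For Ptn at E15 the ratio was 0 without cells carrying other cell types' markers. At P2 all 4 were lower in artery than in coronary cells, where 12.3% of the 12232 genes were. Without lymphatic cells 3 were lower (11.6% of genes) and Prss23 was higher (8.01%, or 7.83% with all cells). In the adult Nr2f2 and Prss23 were lower in artery cells (8.8%) and Nr2f1 higher (6.52%). Endocardial against coronary, Ptn alone of 3 genes with enough UMIs was higher at E12 (29.4% of genes were), Nr2f2 and Ptn of 4 at E15 (23.7%), Nr2f1, Nr2f2 and Ptn of 4 at P2 (21.4%) and Nr2f2 and Ptn of 3 in the adult (24.1%). Prss23 was lower there at E15 (12.6%), P2 (17%) and Adult (23.3%). Against coronary cells, non-endothelial cells were higher in Ptn alone of 4 at E12 (27.2%), in Nr2f1 and Ptn of 4 at E15 (23.4%) and P2 (23.2%), and in Nr2f2, Prss23 and Ptn of 3 in the adult (18.9%). They were lower in Nr2f2 and Prss23 at E12 (16.9%) and in Prss23 at P2 (12.9%). The Nr2f1 intervals spanned 1 at E15 (1.75, 0.776 to 4.33) and at P2 (4.90, 0.587 to 18.1, from 2 non-endothelial UMIs).

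Coronary and artery cells were then divided by whether they held a Nr2f2 UMI, and read for vein genes, Notch and artery genes, the cell cycle and known partners. These lists were chosen with earlier results of these data known, so their counts beside the shares of all genes are a description. From E12 to Adult, 37, 111, 1139 and 169 cells had one and 144, 974, 3478 and 3818 did not. Cells with a Nr2f2 UMI were also deeper, their median depth being 5339 UMIs where the rest had 4364.5 at P2, and 2186 where the rest had 1474.5 in adults, so all values are in CPM.

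Notch and artery genes were lower in the cells with a Nr2f2 UMI. The 16 genes of the list summed to 0.708 of the level without it at E12 (interval of 0.525 to 0.940), 0.772 at E15 (0.667 to 0.890), then 0.799 at P2 (0.783 to 0.814) and 0.810 in the adult (0.756 to 0.866). At P2 11 of 16 were lower by the fold of 1.5 and none higher, where 4.08% of all genes were lower, and in the adult 9 of 15 were lower and none higher (14.4% of genes lower). At E15 6 of 14 were lower and 1 higher (19.5% of genes lower, 12.7% higher), and at E12 2 of 5 were lower and 1 higher (20.7% and 11.1%). The arterial connexin Gja5 went from 38.7 CPM without to 6.07 CPM with a Nr2f2 UMI at P2, a ratio of 0.157 (0.112 to 0.215), and from 50.1 to 7.31 CPM in the adult, a ratio of 0.146 (0.0299 to 0.430). Hey1, a Notch target that encodes a transcriptional repressor, had ratios of 0.450 at P2 (0.390 to 0.517) and 0.466 in the adult (0.303 to 0.688). Sox17, an arterial transcription factor, had ratios of 0.547 and 0.359. Efnb2, Gja4, Cxcr4, Notch4, Dll4, Jag2 and Unc5b were also lower at 2 or more stages, and Notch1, Hes1 and Nrp1 stayed within the fold of 1.5 at P2 and in the adult.

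Some vein genes were higher in the same cells at P2 and in the adult. The 9 genes summed to 1.34 times the level without a Nr2f2 UMI at E12 (0.988 to 1.79), 1.25 times at E15 (1.05 to 1.48), 1.30 times at P2 (1.27 to 1.33) and 1.75 times in the adult (1.64 to 1.87). At P2 4 of 9 were higher (8.47% of all genes were) and in the adult 4 of 8 (17.3%). At E15 1 of 7 was higher and 1 lower (12.7% and 19.5% of genes), so nothing is read from these counts there. At E12 3 of 4 were higher and 1 lower (11.1% and 20.7%). Vwf, which encodes von Willebrand factor and is abundant in veins, had 74.2 CPM with and 35.1 CPM without a Nr2f2 UMI at P2, a ratio of 2.12 (1.88 to 2.38), and 326 against 70.7 CPM in the adult, a ratio of 4.62 (3.78 to 5.61). Selp, which encodes the leukocyte adhesion protein P-selectin of venules, had ratios of 5.17 at P2 (3.16 to 8.69) and 18.3 in the adult (8.79 to 38.3, from 34 UMIs). Ephb4, the venous receptor of Efnb2, had ratios of 1.22 at P2 and 1.34 in the adult, within the fold of 1.5. All 4 vein genes higher in the adult, Vwf and Selp among them, were also higher in endocardial than in coronary cells there (24.1% of genes were). Of the 4 at P2, Vwf was higher in endocardial cells (21.4%), Flt4 and Ackr1 were lower (17%), and Selp was within the fold of 1.5. The 4 adult genes, and Vwf at P2, are therefore not particular to veins in these data.

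**Figure D3:**
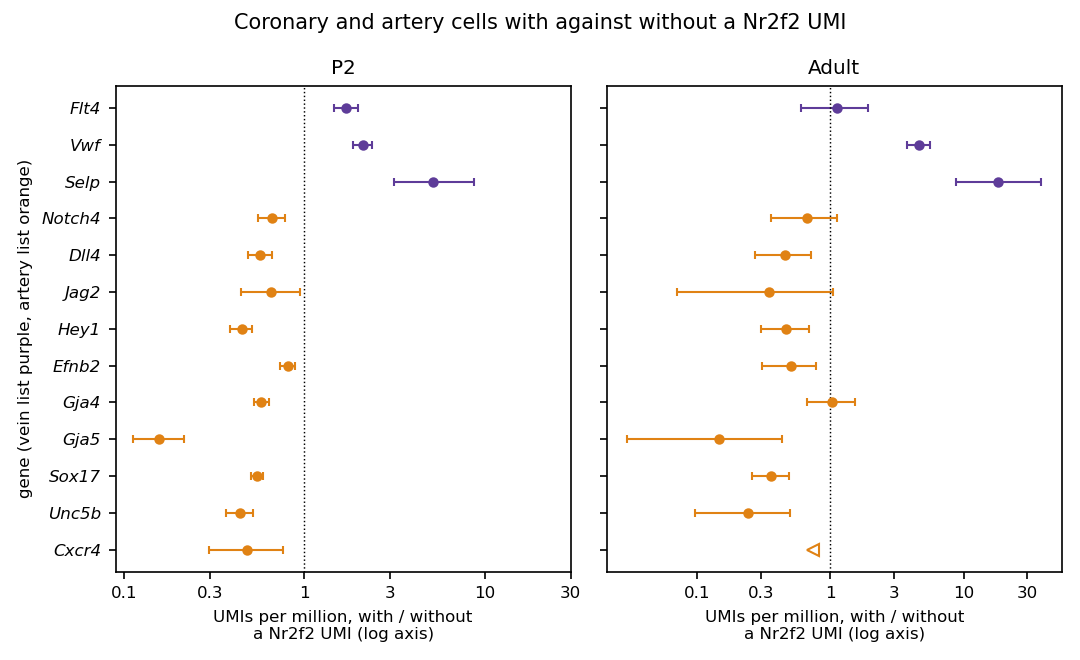
Ratio of levels in CPM (log axis) in coronary and artery cells with a Nr2f2 UMI to those without, at P2 (left) and in the adult (right), for the vein genes (purple) and the Notch and artery genes (orange) past the fold of 1.5 at 2 or more of the 4 stages. Bars are exact 95% intervals for counting error, and the open triangle marks the upper limit where no Cxcr4 UMI was seen; Gja5 lies at 0.157 and 0.146, and Vwf at 2.12 and 4.62.

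Several of these differences moved with other features of the cells. Artery cells made up less of the cells with a Nr2f2 UMI at P2 and in the adult, and within coronary cells alone, an alternative chosen after seeing the data, 6 of 16 Notch and artery genes were lower and 1 higher at P2 (3.4% and 7.59% of genes), and 6 of 15 lower and 1 higher in the adult (17.7% and 18.6%). Gja4 then had a ratio of 1.07 at P2. The Notch and artery list then summed to 0.872 at P2 (0.853 to 0.891) and 0.905 in the adult (0.824 to 0.993). These sums were nearer to 1 than with artery cells included. The vein list summed to 1.25 and 1.81 times. Vein genes were still higher for 4 of 9 at P2 and 4 of 8 in the adult. Without lymphatic cells 9 of 16 Notch and artery genes were lower at P2 (3.93% of genes) and 8 of 15 in the adult (14.6%), 5 of 9 (6.99%) and 4 of 8 (17.4%) vein genes were higher, and Flt4, a receptor gene strong in lymphatic cells, went from 1.70 to 0.957 at P2. Markers of other cells were not even between the groups either. With lymphatic cells left out, mural markers summed to 104 CPM with and 25.6 CPM without a Nr2f2 UMI at P2, and to 2365 against 163 CPM in the adult. Mesenchymal markers summed to 275 against 258 CPM at P2 and 1974 against 413 CPM in the adult, and the 6 endocardial markers to 1352 against 700 CPM and 897 against 224 CPM. Among cells with fewer than 2 UMIs of other cell types' markers, 12 of 16 Notch and artery genes were lower at P2 (4.79% of genes) and 8 of 15 in the adult (15.6%), 6 of 9 vein genes were higher at P2 (9.61%) and 5 of 7 in the adult (17%), and the vein list summed to 1.40 and 1.68 times the level without Nr2f2. The part of endocardial markers in these differences was not tested. With every cell thinned to 500 UMIs before the division, the ratio went to 1.34 for Notch4 and 1.02 for Efnb2 at P2, and to 0 for Foxc1 in the adult.

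Of the other members, Prss23 was higher in cells with a Nr2f2 UMI, at 200 against 41.9 CPM at P2 (a ratio of 4.76, 4.35 to 5.22) and 183 against 28.8 CPM in the adult (6.34, 4.79 to 8.32). Without lymphatic cells the ratios were 1.94 at P2 (1.58 to 2.37) and 6.21 in the adult (4.62 to 8.25). Ptn had ratios of 0.306 at E12 (0.188 to 0.474), 1.38 at E15 (0.962 to 1.95) and 1.84 at P2 (1.71 to 1.99). Artery-rule cells held 241 of the E12 UMIs, which numbered 22 with and 240 without a Nr2f2 UMI. With lymphatic cells left out, mesenchymal markers at E12 summed to 529 CPM with and 1323 CPM without a Nr2f2 UMI. Mural markers summed to 197 against 834 CPM, so no direction is read for Ptn at E12. In the adult the Ptn ratio was 1.17 (0.644 to 1.98). That value was 0.446 without lymphatic cells and 6.88 without cells carrying other cell types' markers, so no direction is read in the adult. Nr2f1 had a ratio of 0.941 at P2 (0.626 to 1.39), an interval that spans 1, and 2.71 in the adult from 4 and 24 UMIs (0.682 to 7.88). The 9 partners, cofactors and Ptn pathway genes summed to 0.599 of the level without Nr2f2 at E12 (0.453 to 0.782) and 1.38 times it at E15 (1.11 to 1.71). In coronary cells alone the E12 value was 0.885 (0.616 to 1.25). Without cells carrying other cell types' markers it was 0.960 (0.643 to 1.41), so no direction is read for this list at E12. At E12 none of 3 was higher and 1 was lower (11.1% and 20.7% of genes), and at E15 4 of 7 were higher and 1 lower (12.7% and 19.5%). At P2 4 of 8 were higher and none lower (8.47% of all genes were higher), and 3 of 7 were higher and 1 lower in the adult (17.3% and 14.4%). The higher ones at both P2 and Adult were Mdk, the relative of Ptn (1.74 and 5.24), Foxc1, a forkhead factor of vessels (1.51 and 2.61), and Prox1, the lymphatic regulator that is also in the lymphatic marker list (3.12 and 5.20). Without lymphatic cells Prox1 was not past the fold at P2 (1.47) and had too few UMIs in the adult (3 and 8), and in coronary cells alone Foxc1 was not past it at P2 (1.38). Without cells carrying other cell types' markers, Mdk had too few UMIs in the adult (0 and 10). Ptprz1, the Ptn receptor, had at most 1 UMI in these cells at any stage. The 5 cell cycle genes summed to 1.03 times the level without Nr2f2 at P2 (0.995 to 1.07) and 0.581 in the adult (0.322 to 0.970, from 434 UMIs). The adult value was 1.33 within the study's upper limits and 0.0727 (0.00183 to 0.408) without cells carrying other cell types' markers, so no direction is read.

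Cells with at least 2 Vwf UMIs gave another division of coronary and artery cells that does not use Nr2f2. With lymphatic cells left out, there were 221 such cells at P2 and 104 in the adult. At P2 they had 160 Nr2f2 CPM (138 to 184) against 62.0 CPM in the rest, 46.0 Prss23 CPM (34.6 to 59.9) against 16.3 CPM, and 408 Ptn CPM (373 to 446) against 99.3 CPM. In the adult they had 154 Nr2f2 CPM (106 to 216) against 24.5 CPM, and 280 Prss23 CPM (214 to 361) against 27.7 CPM. All of these intervals lay above those of the rest. Ptn in the adult was 28.0 CPM against 27.6 CPM and Nr2f1 at P2 was 5.85 against 5.43 CPM, values whose intervals overlap. No Nr2f1 UMI was seen in the adult cells with Vwf, which allows up to 14.0 CPM.

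The Vwf cells also carried endocardial markers, summing to 2298 against 792 CPM at P2 and 2480 against 192 CPM in the adult. The endocardial genes of the class rule, Npr3 and Tmem108, summed to 446 against 115 CPM and 635 against 14.8 CPM. The coronary genes of the class rule, Fabp4, Cldn5 and Aplnr, summed to 0.382 of the rest at P2 and 0.550 in the adult. Mural markers were lower in them, at 0.488 of the rest at P2 and 0.191 in the adult, while mesenchymal markers were higher, at 3.44 and 1.75 times. Endocardial cells at the same stages had 158 and 199 Nr2f2 CPM, with intervals that overlap those of the Vwf cells, and 679 and 74.7 Ptn CPM. Their Prss23 was 3.98 and 0 CPM, below that of the Vwf cells. The part of endocardial cells among the Vwf cells was not tested.

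**Figure D4:**
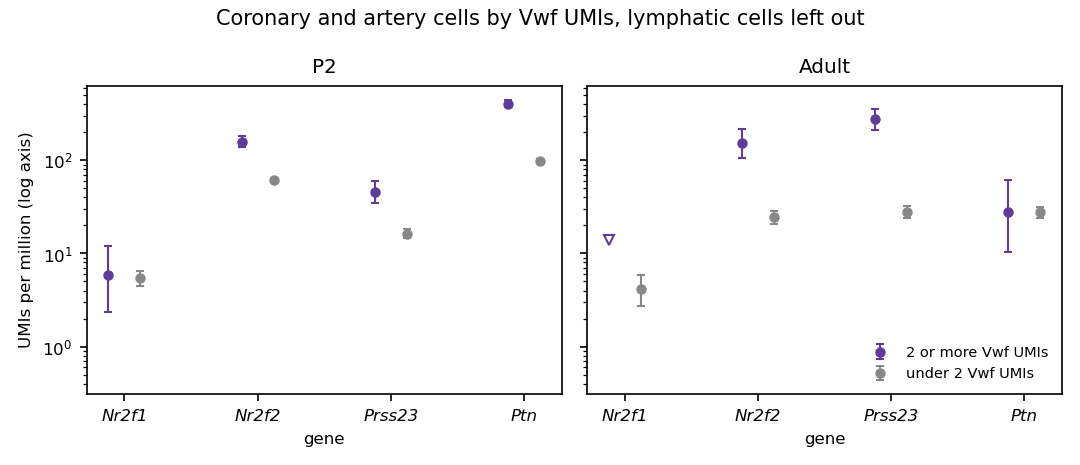
Level of each gene in CPM (log axis) in coronary and artery cells with 2 or more Vwf UMIs (purple) and with fewer (grey), lymphatic cells left out, at P2 (left) and in the adult (right). Bars are exact 95% Poisson intervals and the open triangle is the limit of 3 UMIs; Nr2f2 stood at 160 against 62.0 CPM at P2 and at 154 against 24.5 CPM in the adult.

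Apln, which encodes the peptide apelin, and Esm1, which encodes endocan, are expressed in sprouting endothelial cells. At P2, coronary and artery cells with an Apln and no Esm1 UMI (940 cells) had 62.2 Nr2f2 CPM (56.0 to 69.0), those with Esm1 and no Apln (67 cells) had 24.0 CPM (up to 45.7), and those with both (36 cells) had 9.80 CPM from 3 UMIs (2.02 to 28.7). The Apln interval lay above those of both Esm1 groups. It lay below that of the P2 cells without a Cxcr4 UMI, lymphatic cells included (75.9 CPM, 72.4 to 79.5). It overlapped that of P2 cells with fewer than 2 Vwf UMIs, lymphatic cells left out (62.0 CPM, 58.7 to 65.4). The Apln cells were thus not high in Nr2f2. At E12 only 7 cells had Apln alone, with 3 Nr2f2 UMIs, and 5 had Esm1 alone, with none, so no order is read there. In the adult both groups were near 9 CPM, with 9.18 CPM for Apln (121 cells) and 9.66 CPM for Esm1 (108 cells), from 3 and 2 UMIs. Cells with a UMI of Cxcr4, the receptor of the artery gene Cxcl12, had 35.3 Nr2f2 CPM against 75.9 CPM in cells without at P2 (119 and 4498 cells), and no Nr2f2 UMI in 75 cells against 30.1 CPM in the adult, where 0 allows up to 19.3 CPM.

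In the same cells, lymphatic cells left out, members were seen together more often than the product of their shares gives for some pairs only. At P2 Nr2f2 and Ptn met in 230 cells (127 by the product), Nr2f2 and Prss23 in 84 (53.5), and Prss23 and Ptn in 46 (30.1). Nr2f1 met Nr2f2 in 27 cells (25.5 by the product) and Prss23 in 6 (6.02). In the adult Nr2f2 and Prss23 met in 30 cells (6.16 by the product). Deeper cells meet more pairs by depth alone. At 500 UMIs per cell, with classes and lymphatic cells set again from the thinned counts, the counts for Nr2f2 were lower. They were 10 with Ptn (2.25) and 4 with Prss23 (1.03) at P2 and 2 with Prss23 (0.544) in the adult. The lymphatic exclusion then took 3105 cells to 3048 at P2, against 4617 to 4369 at full depth. Lymphatic cells that lost their markers by thinning may remain, so nothing is read from the thinned Prss23 count at P2. In endocardial cells Nr2f2 and Ptn met in 316 cells at P2 (294) and 117 at E15 (93.3), close to the product at P2.

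Over the 15 groups of class and stage with at least 20 cells, 4 of the 5 genes whose log2(CPM + 10) was most like that of Nr2f2 among 5470 genes were Igfbp4 (Pearson's r of 0.872), Fam162a (0.861), Desi2 (0.838) and Snx5 (0.835). For Ptn the 5 were Col5a1 (0.943), 6330403K07Rik (0.942), Nrk (0.938), Abhd17c (0.927) and Shisa4 (0.923). For Prss23 they were Csrp1 (0.925), Lap3 (0.898), Bicd2 (0.869), Mxra7 (0.853) and Pkig (0.840), and for Nr2f1 Col4a5 (0.910), Fasn (0.908), Tmem216 (0.895), Ormdl1 (0.873) and Tmem138 (0.873). Of the 5 genes, Spearman's rank correlation kept 2 for Nr2f1, 4 for Nr2f2, 4 for Prss23 and 3 for Ptn. The members were less like each other by Pearson's r. The values were 0.244 between Nr2f1 and Nr2f2, 0.419 between Nr2f1 and Ptn, 0.312 between Nr2f2 and Ptn and -0.430 between Nr2f2 and Prss23. The points share libraries and depth, so these values are a description.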

How the data were processed

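Cells were sorted, sequenced with a droplet kit that tags the 3′ end, and aligned to mm10 with Cell Ranger 2.2, per the submitters' processing notes. The values deposited by the authors are raw UMI counts per gene and barcode. Whether counting used strand is not given in the sources used here, so the part of antisense reads was not tested. The E12 barcodes were taken as cells at or above 452 UMIs, which is 0.1 of the 0.99 quantile of the 3000 deepest barcodes, as Cell Ranger 2.2 calls cells. The other matrices held called cells and were used whole. No doublet caller was run, and cells of the excluded types of the study were kept.

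UMIs were summed over the cells of a class and divided by the UMIs of those cells (CPM), with exact 95% Poisson intervals. Ratios have exact conditional binomial intervals and shares exact binomial ones. All cover counting error only, and with 1 pooled library per stage there is no test. Classes were assigned in the order non-endothelial, artery, endocardial, coronary, since the rule lets them overlap. A UMI count of 0 was taken to allow 3. Text names the members, list genes past a fold of 1.5 with 20 or more UMIs at 2 stages in 1 direction, and the 5 genes most like each member. Examples outside this rule (Ephb4, Ackr1, Notch1, Hes1, Nrp1, Ptprz1) were chosen after their values were seen. A vein gene, left out of its list, and a gene like Nr2f2 are not reported here. The members and lists were chosen with earlier results of these data known. The intervals and calls were tested on simulated data. Sequences come from the mouse genome GRCm38 and RefSeq. Python 3.11.15, numpy 2.4.6, scipy 1.17.1, pandas 2.3.3 and matplotlib 3.10.9 were used. Alternatives were upper limits on UMIs, genes and mitochondrial share, a minimum of 1000 UMIs, thinning to 500 UMIs, overlapping class rules, a total without haemoglobin, mitochondrial and ribosomal genes, leaving out cells with 2 UMIs of other cell types' markers, artery rules of 5 UMIs or with the coronary rule, and, added after seeing the data, leaving out lymphatic or artery cells.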

Additional observations from a re-analysis of the deposited data

Results flagged for a closer look

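Some ratios changed direction between stages, with intervals on either side of 1. The differences between stages were not tested, since each stage is 1 library. Nr2f1 in cells passing the artery rule was 3.64 times the coronary level at E12, 0.499 of it at P2 and 2.67 times it in the adult, from 14, 133 and 28 UMIs in all. Without cells carrying other cell types' markers, none of the 10 E12 artery-rule UMIs was left. The adult artery and coronary intervals then overlapped. Ptn in cells passing the artery rule was 16.7 times the coronary level at E12, 6.57 times at E15 and 0.494 of it at P2. Mesenchymal markers summed to 2490 CPM in the E12 artery-rule cells.

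Nr2f2 in non-endothelial cells was 0.373 of the coronary level at E12, 1.42 times it at E15 and 2.61 times it in the adult, while the coronary level itself went from 177 to 41.7 CPM. At E15, 187 of the 242 non-endothelial UMIs were in cells with no set of another cell type's markers, mesenchymal cells had 48.5 CPM, and with at least 1000 UMIs per cell the ratio was 0.979. Prss23 in non-endothelial cells was 0.308 of the coronary level at E12, 0.160 at P2 from 1 UMI, and 2.81 times it in the adult. Without lymphatic cells the P2 ratio was 1.07. The makeup of the non-endothelial class differed between stages, with 37 red blood cells and 1107 mesenchymal cells among 2995 at E12 and 26 mural cells among 133 in the adult.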

How the results depend on the processing

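Of the ratios between classes within a stage, 27 were recomputed under most alternatives, and none left the range of its counting interval with a total free of haemoglobin, mitochondrial and ribosomal genes or, among these, with at least 1000 UMIs per cell. Both settings added after seeing the data (lymphatic cells left out, coronary cells alone) are named as such. The cause of the changes below was not tested. Thinning to 500 UMIs removes most UMIs, and classes were set again from the thinned counts. Settings gave no value for 19 to 239 results each, for want of UMIs. No paired analysis was possible because each stage was 1 library. With cells that carry 2 UMIs of other cell types' markers left out, artery over coronary went to 2.12 for Nr2f2 at E12, and for Ptn to 0 (E15), 0.647 (P2) and 0.175 (Adult); endocardial over coronary went to 9.80 for Ptn at E15, and at P2 to 8.18 for Ptn and 2.31 for Nr2f2. The Mdk ratio with over without Nr2f2 at E12 went from 0.560 to 1.13, and to 1.00 with artery cells that were also coronary or with coronary cells alone. With artery cells that were also coronary, Ptn in artery over coronary cells was 2.65 (E15), 0.416 (P2) and 0.254 (Adult). In coronary cells alone the Gja4 ratio at P2 was 1.07. With an artery rule of 5 UMIs, artery over coronary at E15 was 0 for Nr2f2, 0 for Prss23 and 2.51 for Ptn, at P2 0.369 for Nr2f2 and 0.330 for Ptn, and in the adult 0.567 for Prss23 and 0.378 for Ptn. With overlapping class rules, it was 16.5 for Ptn at E15, and in the adult 0.604 for Nr2f2, 0.608 for Prss23 and 1.82 for Ptn; Nr2f2 in endocardial over coronary cells at P2 was 2.12, and Ptn was 0.999 for P2 over E15 in endocardial cells and 1.36 for E15 over E12 in artery cells. Within the study's upper limits, Ptn in endocardial over coronary cells was 6.62 at E15 and 0.484 in the adult, and in the adult 0.141 in artery and 0.888 in non-endothelial over coronary cells, and the cell cycle list had 1.33. With at least 1000 UMIs per cell, Nr2f2 in non-endothelial over coronary cells at E15 was 0.979. Without lymphatic cells, Prss23 at P2 was 2.64 in artery, 0.277 in endocardial and 1.07 in non-endothelial over coronary cells, and 3.51 for Adult over P2 in coronary cells. Nr2f2 in endocardial over coronary cells at P2 was then 2.14, Ptn in artery over coronary cells in the adult 1.67, and the Flt4 ratio at P2 0.957. Thinned to 500 UMIs, endocardial over coronary at E15 was 3.49 for Nr2f2 and 5.76 for Ptn, at P2 2.70 for Nr2f2, 0.108 for Prss23 and 8.95 for Ptn, and in the adult 20.0 for Nr2f2. Artery over coronary at P2 was 0.191 for Nr2f2, 2.32 for Prss23 and 0 for Ptn, and in the adult 0.301 for Nr2f2 and 0.165 for Prss23. Non-endothelial over coronary Prss23 at P2 was 1.49. In non-endothelial cells Ptn was 0.953 for E15 over E12 and 0.328 for P2 over E15, and Nr2f2 was 0.558 for Adult over E12. Of the ratios with over without Nr2f2, thinning gave 1.78 for Sox17 and 0.696 for the partners list at E15, 1.34 for Notch4 and 1.02 for Efnb2 at P2, and 0 for Foxc1 and 0.260 for the partners list in the adult.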

Other observations

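Outside the comparisons above, Ptn in the adult was held by few cells. Cells with at least 2 UMIs of the valve genes Cldn11, Enpp2, Pthlh and Wnt4 had 790 CPM (654 to 947) from 117 UMIs in 9 cells, against 347 CPM at P2 (328 to 368). The 22 lymphatic cells had 476 CPM (321 to 680) from 30 UMIs in 8 cells, against 94.4 CPM at P2 (80.6 to 110). Ptn was thus higher in the adult than at P2 in these groups, from few adult cells. The 1659 adult mature capillary cells had 3.84 CPM.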
